A study of Mus musculus with 6 samples.

Results

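Solute carriers are membrane proteins that move ions, nutrients and metabolites across the cell surface and across organelle membranes. They are numbered by family, and the number loosely follows the substrate. Substrate classes below were set by family number alone, so a class can hold members that carry something else. Examples are the creatine importer SLC6A8 among amino acid carriers and the aromatic amino acid carrier SLC16A10 among monocarboxylate carriers. In blood-forming cells they bring in amino acids and sugars for growth, iron for heme synthesis and cystine for glutathione, and in endolysosomes some of them hold the amino acid and peptide balance on which innate immune receptors depend. The genes described here were taken by symbol, as SLC followed by a family number, A and a member number, leaving out SLC25, the mitochondrial carrier family. This gave 178 of the 13892 rows in the table, and all 178 were among the 13755 genes tested. Of these, 167 rows name a carrier and 11 name something else that shares its symbol: the transcription factor SLC2A4RG, the scaffolds SLC9A3R1 and SLC9A3R2, SLC4A1AP, SLC7A6OS, the pseudogenes SLC7A5P2 and SLC9A7P1, and 4 antisense transcripts.

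The cells were human leukemia cells grown in NSG mice, an immunodeficient strain. Human hematopoietic stem cells had been transduced with NPM1c, a mutant nucleophosmin that moves to the cytoplasm and drives acute myeloid leukemia, with GFP as its marker. Marrow of 3 moribund mice, each from its own transduction, was sorted into leukemic stem cells (LSC; GFP, CD33 and CD123 positive) and bulk leukemic cells (GFP and CD33 positive), so that each population has 3 libraries and libraries with the same number share a mouse. Both populations carry NPM1c, the bulk gate says nothing of CD123, and no untransduced cells were among the samples. Age and sex of the animals are not used here.

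Levels are given in CPM, reads scaled to a common library size by the authors' normalization, with the small prior of the deposited values subtracted. Rows of the MTRNR2L family, which resemble mitochondrial ribosomal RNA, took 27.2% to 70.0% of reads. Outside them 7457288 to 8126327 reads remained in LSC libraries and 3423878 to 9571165 in bulk libraries, with bulk of mouse 1 the lowest. The solute carrier rows held 57151 to 68311 reads in LSC libraries and 18982 to 53083 in bulk libraries, and 0 to 7 of them had no read in a given library. A count of 3 reads stood for 0.19 to 0.222 CPM in LSC libraries and 0.192 to 0.514 CPM in bulk libraries. IL3RA, which encodes CD123, averaged 107.6 ± 51.7 CPM in LSC and 2.01 ± 0.424 CPM in bulk, while CD33 averaged 5.34 ± 3.67 CPM in LSC and 8.57 ± 4.31 CPM in bulk (SD, n = 3 each). The LSC libraries also stood apart in cell type markers. Of 21 plasmacytoid dendritic cell markers tested, 19 were higher in LSC and 0 lower, with a summed level of 2917 to 5129 CPM in LSC against 219.8 to 500.7 CPM in bulk, and SCT had no read in any bulk library. Erythroid markers summed to 81.98 to 637.7 CPM in LSC and 478 to 1841 CPM in bulk, with no marker at 0 in all libraries of a population. Of 14 B lineage markers, 0 were higher and 3 lower (9 lower and 1 higher with the block), with summed levels of 313.1 to 345.8 CPM in LSC and 649.7 to 2698 CPM in bulk. Of 20 granule and neutrophil markers none passed without the block and 11 were lower with it, and of 9 monocyte markers 1 was lower, or 3 with the block. Of 10 T and NK cell markers, 1 was higher and 0 lower in both fits. In sorted populations, fewer cells of a type and less RNA per cell cannot be told apart.

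The question asked of these genes was how the transporter repertoire of the CD123-positive LSC differs from that of bulk cells. Of the 178 rows, 9 were higher in LSC, or 5.06%, against 2.71% of all genes tested (limma across all genes, Benjamini-Hochberg adjusted p under 0.05). Another 2 were lower, or 1.12%, against 1.33% of all genes. The 9 were SLC12A3, SLC4A10, SLC15A4, SLC20A1, SLC41A2, SLC7A11, SLC39A6, SLC7A6 and the non-carrier SLC2A4RG, and the 2 were SLC41A1 and SLC16A9. In all 11, every LSC library lay on one side of every bulk library. The test that chose these rows on the same values favours such separation, so it is not further support. Leaving out 1 library gave 4 to 7 higher and 2 to 4 lower rows, with 4 higher without LSC of mouse 1, bulk of mouse 1 or bulk of mouse 2 and 4 lower without LSC of mouse 2. Over all genes tested these fits gave 168 to 346 higher and 38 to 169 lower, against 373 and 183 with all 6 libraries. The median log2 change of the 178 rows was 0.09, against -0.00 for all genes. Libraries of one mouse vary together, and with the mouse as a block in the fit 28 rows were higher (15.7%, against 8.25% of all genes) and 15 lower (8.43%, against 7.71%). On 2 mice the blocked fit gave 7 higher and 5 lower rows without mouse 1, 11 and 3 without mouse 2, and 38 and 21 without mouse 3. Over all genes tested the same fits gave 386 higher and 344 lower, 444 and 296, and 1747 and 1567. On 3 mice the blocked fit gave 1135 and 1060. Calls that need the block are named as such. The fit with the block favours rows with the same direction in each mouse, so that agreement adds no support to such a call. The share of lower rows lay near the background in both fits. These shares of all genes are also the background for every count by class or list in this text. All LSC libraries lay above all bulk libraries for 35 rows (19.7%, against 13.2% of all genes) and below for 16 rows (8.99%, against 11.9%). LSC was higher in 3 of 3 mice for 59 rows (33.1%, against 27.3%) and lower for 46 (25.8%, against 25.8%), and the log2 change was positive for 97 rows (54.5%, against 49.8%).

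A few rows reached 1 CPM in 1 population alone. The filter of 1 CPM in 3 libraries keeps such a row only if all 3 libraries of the other population reach 1 CPM. Their separation at 1 CPM is thus set by the filter and is not a result about these rows. Those with at least 1 CPM in no bulk library were SLC4A10 and SLC4A3, 1.12% of the 178 against 0.909% of all genes. Those with at least 1 CPM in no LSC library were SLC37A4, SLC16A10 and SLC38A5, 1.69% against 0.691% of all genes. SLC16A10, an aromatic amino acid carrier, had 0, 0.761 and 0.0729 CPM in LSC and 1.2, 2.12 and 1.92 CPM in bulk. SLC38A5, a glutamine carrier, had 0.0739, 0.444 and 0.292 CPM in LSC and 3.42, 4.23 and 1.28 CPM in bulk. Neither of these 2 passed in either fit.

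**Figure D1:**
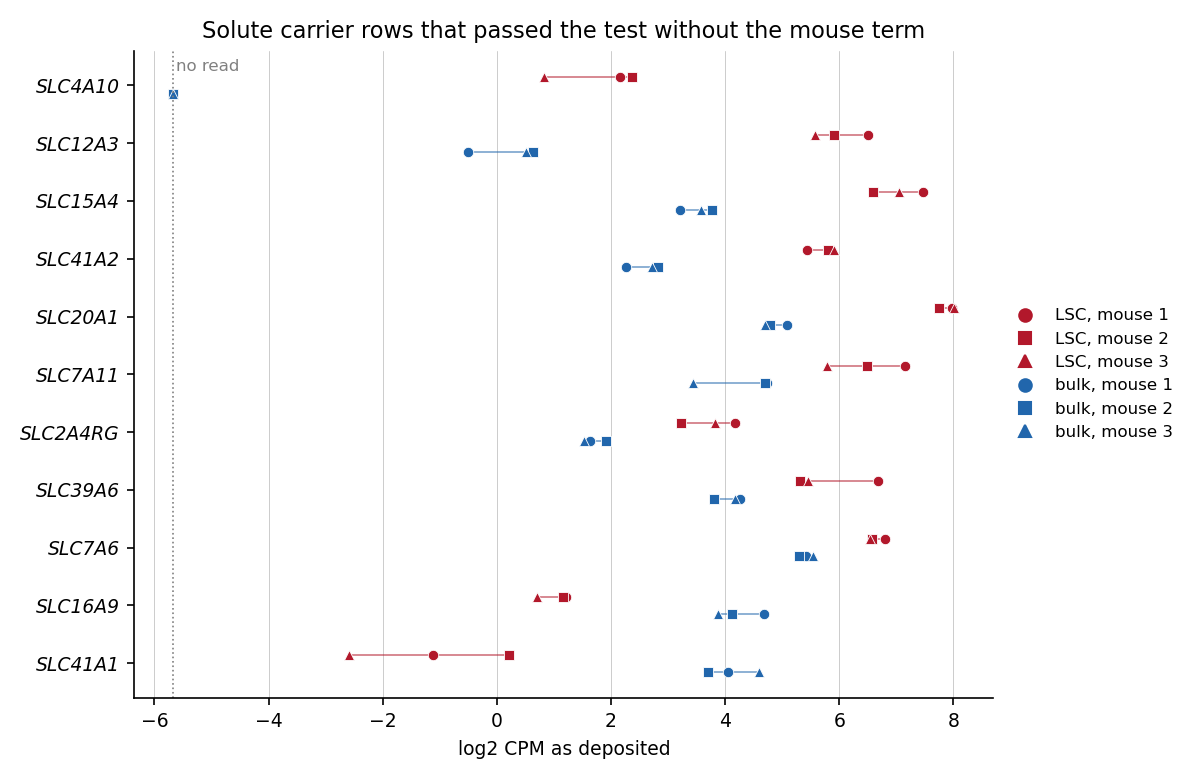
Deposited log2 CPM (x axis) of the 11 solute carrier rows that passed the test without the mouse in the fit, with LSC in red above bulk in blue and 1 symbol per mouse; lines span each population, points at the dotted line have no read, and some points lie on top of each other. Red and blue symbols do not overlap in any row, which the choice of rows by the test favours, and SLC4A10 has all 3 bulk libraries at the dotted line.

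Among carriers of chloride and bicarbonate, SLC12A3 had the lowest adjusted p of the 178 rows. It encodes the thiazide-sensitive sodium-chloride cotransporter, known best from the distal convoluted tubule of the kidney. SLC12A3 stood at 90.5, 60.2 and 47.8 CPM in LSC of mice 1, 2 and 3, against 0.685, 1.52 and 1.41 CPM in bulk of the same mice. The log2 change was 5.79 (SE 0.46, adjusted p = 0.000587, limma). It passed in each of the 24 alternative settings tried. No other SLC12 carrier passed without the block. SLC12A2, the sodium-potassium-chloride cotransporter that most cells use for volume control, had 53.4, 38.9 and 75.5 CPM in LSC and 24.5, 21.3 and 40.8 CPM in bulk, and passed only with the block (log2 change 0.96, adjusted p = 0.0247, limma; 0.192 without).

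Kinases that switch these cotransporters were on the list of partners and regulators. STK39, which encodes SPAK, the kinase that phosphorylates and activates SLC12A2 and SLC12A3, had 5.69, 6.53 and 5.32 CPM in LSC and 36.8, 31.3 and 38.6 CPM in bulk. It fell by 2.60 on the log2 scale (SE 0.33, adjusted p = 0.00347, limma), opposite in direction to SLC12A3. WNK1, the kinase upstream of it, averaged 269 ± 75.9 CPM in LSC and 484 ± 39.4 CPM in bulk (SD, n = 3 each) and passed only with the block (adjusted p = 0.0322, limma; 0.133 without). OXSR1, the kinase closest to STK39, passed in neither fit (log2 change -0.47, adjusted p = 0.615, limma).

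SLC4A10, a sodium-coupled bicarbonate transporter known from neurons, had no read in any bulk library, and 4.43, 5.14 and 1.75 CPM in LSC of mice 1, 2 and 3. The 165 LSC reads make it at least 42.55-fold higher, with a floor of 3 reads in the 3 bulk libraries together, which covers counting error only. SLC4A10 passed the filter through its LSC libraries alone, so this bound describes its reads and adds no support to the call. Its adjusted p was 0.0291 (limma), and the call was lost on leaving out LSC of mouse 1 (adjusted p = 0.107) or mouse 2 (0.0925), or bulk of mouse 1 (0.0609) or mouse 2 (0.0550). Of the other carriers of family 4, SLC4A3 and SLC4A8 were higher only with the block, and SLC4A2, SLC4A5 and SLC4A7 passed in neither fit. SLC4A3, an anion exchanger known from heart and brain, had 5.32, 2.92 and 1.17 CPM in LSC against 0.685, 0.169 and 0.128 CPM in bulk (log2 change 3.30, adjusted p = 0.0497 with the block, limma; 0.119 without). SLC4A8, another sodium-driven bicarbonate carrier, had 12.6, 34.5 and 37.9 CPM in LSC and 4.79, 20.9 and 17.3 CPM in bulk, higher in LSC in 3 of 3 mice (adjusted p = 0.0354 with the block, limma; 0.368 without). SLC4A1, the red cell anion exchanger band 3, went the other way and is described with the red cell carriers. Over the 19 carriers of inorganic anions and chloride, 2 were higher and 0 lower, against 2.71% and 1.33% of all genes. With the block 5 were higher and 2 lower, against 8.25% and 7.71% of all genes. The median log2 change was 0.63.

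The peptide carrier SLC15A4 sits in endolysosomes, where it exports histidine and peptides, and it is needed in mouse and human plasmacytoid dendritic cells for signaling by nucleic acid sensing Toll-like receptors. SLC15A4 had 176, 95.9 and 132 CPM in LSC of mice 1, 2 and 3 and 9.25, 13.6 and 11.9 CPM in bulk. It rose by 3.51 on the log2 scale (SE 0.33, adjusted p = 0.000979, limma). The plasmacytoid marker list, with 19 of 21 members higher and a median log2 change of 4.82, moved in the same direction, and its part in the SLC15A4 result was not tested. CXorf21, which encodes TASL, the adaptor that SLC15A4 holds at the endolysosome, had 68.5, 85.8 and 74.6 CPM in LSC against 50.7, 69.2 and 64.9 CPM in bulk and passed in neither fit (log2 change 0.32, adjusted p = 0.55, limma). UNC93B1, which carries these receptors to the endolysosome, averaged 7.64 ± 2.9 CPM in LSC and 2.27 ± 0.75 CPM in bulk (SD, n = 3 each) and missed the threshold with the block as well (adjusted p = 0.0550, limma; 0.111 without).

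SLC15A3, the closest endolysosomal relative of SLC15A4, had 7.02, 5.83 and 0.438 CPM in LSC and 0.342, 1.19 and 2.11 CPM in bulk. It was higher in LSC in mice 1 and 2 and lower in mouse 3, and passed in neither fit. SLC15A2, a peptide carrier of the cell surface, had 42.5, 31.1 and 41.9 CPM in LSC and 32.7, 28 and 36.5 CPM in bulk; the 95% interval of its log2 change was -0.43 to 0.91. On the list of 9 endolysosomal carriers of immune cells, SLC15A4 was the single member higher, 0 were lower, and the median log2 change was -0.10. With the block 1 member was lower: SLC36A1, a proton-coupled exporter of small amino acids from lysosomes, had 18.2, 12.4 and 2.55 CPM in LSC and 27.7, 34.6 and 10.4 CPM in bulk (log2 change -1.37, adjusted p = 0.0317 with the block, limma; 0.332 without). SLC38A9, the lysosomal arginine sensor upstream of mTORC1, SLC11A1, the phagosomal metal carrier, and SLC29A3, the lysosomal nucleoside carrier, did not pass in either fit.

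SLC20A1 is a sodium-phosphate importer of the cell surface. It had 251, 215 and 259 CPM in LSC of mice 1, 2 and 3, against 33.7, 27.7 and 25.9 CPM in bulk. It rose by 3.06 on the log2 scale (SE 0.26, adjusted p = 0.000638, limma) and kept its call in each of the 24 alternative settings tried. Its paralog SLC20A2 had 8.13, 9.89 and 8.61 CPM in LSC and 7.02, 9.40 and 12.5 CPM in bulk, with an interval of the log2 change from -0.96 to 0.79.

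Magnesium carriers of family 41 split. SLC41A2 had 43.2, 56 and 59.7 CPM in LSC and 4.79, 7.03 and 6.59 CPM in bulk, and rose by 3.11 on the log2 scale (SE 0.34, adjusted p = 0.0016, limma). SLC41A1, which exports magnesium from the cell, had 0.443, 1.14 and 0.146 CPM in LSC and 16.6, 13 and 24.2 CPM in bulk, and fell by 5.28 on the log2 scale (SE 0.76, adjusted p = 0.00667, limma). Its LSC values rest on 6, 18 and 2 reads, and its log2 change ran from -6.18 to -2.02 over the alternative settings. The lowest SLC41A2 value in LSC was thus above every bulk value, and the highest SLC41A1 value in LSC below every bulk value. SLC41A3 had 1.92, 4.82 and 5.18 CPM in LSC and 0.685, 5.42 and 4.41 CPM in bulk and passed in neither fit. NIPA1, a magnesium carrier listed among solute carriers that keep other symbols, moved with SLC41A2: it had 46.3, 40.6 and 64.9 CPM in LSC and 7.02, 3.39 and 10.2 CPM in bulk (log2 change 2.99, adjusted p = 0.00846, limma). NIPA1 was the single one of the 35 tested carriers under other symbols to be higher, with 0 lower. With the block 4 were higher and 2 lower, against 8.25% and 7.71% of all genes.

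The other metal carriers move zinc, iron, copper and manganese. SLC39A6, a zinc importer also called LIV-1, had 102, 39.8 and 43.6 CPM in LSC and 19.2, 13.9 and 18.1 CPM in bulk (log2 change 1.73, SE 0.41, adjusted p = 0.049, limma). The call was lost on leaving out any of the 6 libraries, with adjusted p of 0.0507 to 0.142. Of the 7 zinc carriers of family 30, which move zinc out of the cytosol, 2 passed, only with the block: SLC30A8, known from pancreatic beta cells, had 3.40, 1.65 and 9.04 CPM in LSC and 0.342, 0.423 and 1.28 CPM in bulk, and SLC30A5, of the secretory pathway, had 42.5, 32.3 and 43.1 CPM in LSC and 19.7, 20.9 and 22.9 CPM in bulk (adjusted p = 0.0397 and 0.0442, limma). Both exporters were higher in LSC in every mouse, which a call with the block favours. SLC39A8, an importer of zinc, manganese and iron, was lower with the block, at 16.9, 6.15 and 3.14 CPM in LSC and 37.3, 33.1 and 27.9 CPM in bulk (log2 change -2.24, adjusted p = 0.00777, limma; 0.0635 without). The copper importer SLC31A1 had 107, 122 and 90.9 CPM in LSC and 99.5, 118 and 83.4 CPM in bulk, and the interval of its log2 change was -0.52 to 0.71. Of the 26 metal carriers, 2 were higher and 1 lower, against 2.71% and 1.33% of all genes. With the block 4 were higher and 3 lower, against 8.25% and 7.71% of all genes. The median log2 change was -0.07.

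**Figure D2:**
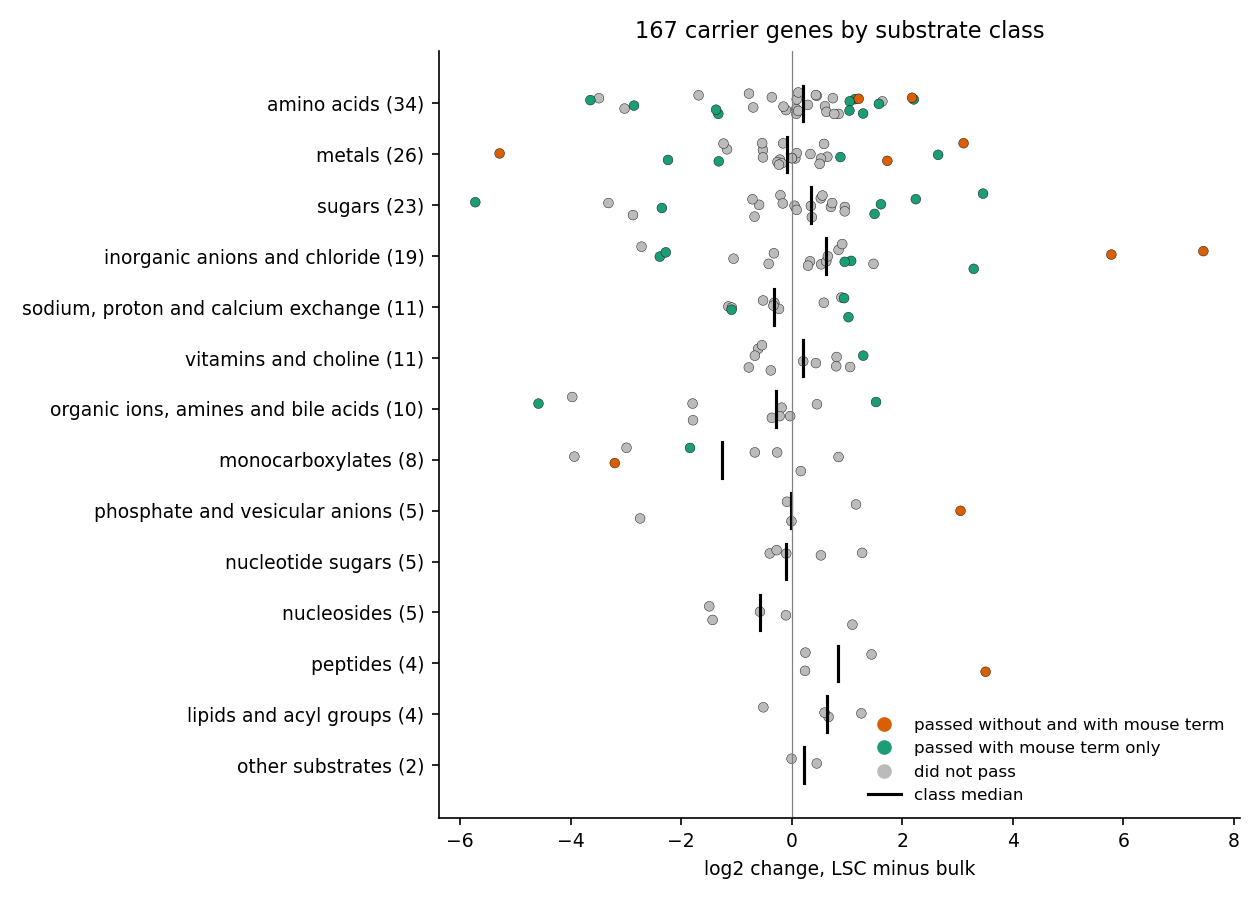
Log2 change, LSC minus bulk (x axis), of the 167 carrier genes by substrate class (y axis, number of genes in parentheses); each point is a gene, black bars are class medians, orange points passed without and with the mouse in the fit and green points only with it. Class medians run from -1.25 in the 8 monocarboxylate carriers to 0.85 in the 4 peptide carriers, against -0.00 for all genes tested. Classes follow the family number alone.

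Amino acid carriers were the largest class, with a median log2 change of 0.21. Of the 34, 2 were higher and 0 lower, against 2.71% and 1.33% of all genes. With the block 8 were higher and 4 lower, against 8.25% and 7.71% of all genes. SLC7A11, the cystine-glutamate exchanger that feeds glutathione synthesis, had 141, 89.6 and 54.8 CPM in LSC of mice 1, 2 and 3, against 26.7, 25.9 and 10.7 CPM in bulk. It rose by 2.18 on the log2 scale (SE 0.47, adjusted p = 0.0343, limma; 0.00107 with the block). The call without the block was lost on leaving out any library but LSC of mouse 3, with adjusted p up to 0.102. SLC7A11-AS1, an antisense row at the same locus, had 21.9, 17.2 and 7.58 CPM in LSC and 9.59, 7.54 and 6.4 CPM in bulk and passed in neither fit; the counting is not stated to use strand, so reads of the pair cannot be told apart. SLC7A6, an exchanger of cationic and neutral amino acids, had 111, 94.9 and 92.8 CPM in LSC and 42.6, 39.4 and 46.6 CPM in bulk (log2 change 1.21, SE 0.26, adjusted p = 0.0357, limma). Its groups were far apart relative to their spread, yet the call was lost on leaving out any of the 6 libraries, with adjusted p of 0.0536 to 0.142.

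SLC7A5 and SLC3A2 encode the light and heavy chains of LAT1-CD98, the exchanger for leucine and other large neutral amino acids. SLC7A5 had 30.7, 46.8 and 16.6 CPM in LSC and 6.16, 13.5 and 2.88 CPM in bulk, and was higher only with the block (log2 change 2.21, adjusted p = 0.00274, limma; 0.0788 without). SLC3A2 had 6.87, 7.86 and 5.91 CPM in LSC and 7.88, 6.18 and 5.50 CPM in bulk, and the interval of its log2 change was -0.82 to 0.99. The light chain thus passed with the block and the heavy chain in neither fit; the difference between them was not tested. SLC7A5P2, a pseudogene near-identical to SLC7A5, had 12.1, 19 and 12.6 CPM in LSC and 3.77, 9.65 and 7.81 CPM in bulk, and reads of the pair may have been split between them.

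SLC38A1, a sodium-coupled importer of glutamine, had 264, 207 and 336 CPM in LSC, against 84.6, 84.4 and 289 CPM in bulk. It was higher in LSC in 3 of 3 mice and passed only with the block (log2 change 1.05, adjusted p = 0.0336, limma; 0.251 without). SLC1A5, a glutamine exchanger, had 52.9, 20.7 and 75.7 CPM in LSC and 17.6, 19.6 and 7.87 CPM in bulk; mouse 2 hardly differed, and it passed in neither fit (adjusted p = 0.131, limma; 0.0582 with the block). SLC43A1, a facilitator of large neutral amino acids, was lower with the block, at 0.296, 1.52 and 0.438 CPM in LSC and 4.79, 8.13 and 2.11 CPM in bulk (adjusted p = 0.0302, limma). Another member of that family, SLC43A2, was higher with the block, at 35.7, 43.9 and 38.4 CPM in LSC and 12.8, 22.3 and 19.4 CPM in bulk (adjusted p = 0.0197, limma). These members of family 43 thus went opposite ways in every mouse, and a call with the block favours such agreement between mice. SLC6A8, the creatine importer, had 0.222, 4.31 and 0.0729 CPM in LSC and 10.6, 13 and 1.34 CPM in bulk and was lower with the block (adjusted p = 0.0237, limma). Over the list of 10 growth-related amino acid carriers, 2 were higher and 0 lower, or 4 and 1 with the block, with a median log2 change of 0.75. MYC, a transcription factor known to raise several of these carriers, had 18, 11.5 and 4.23 CPM in LSC and 88.2, 45 and 67.9 CPM in bulk, and fell by 2.75 on the log2 scale (adjusted p = 0.0235, limma; 0.0925 without bulk of mouse 1 and 0.0528 without bulk of mouse 3). Of 20 G2 and M phase genes, 9 were lower too and 0 higher, with a summed level of 1204 to 1956 CPM in LSC against 4565 to 8789 CPM in bulk; their part in the carrier results was not tested.

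**Figure D3:**
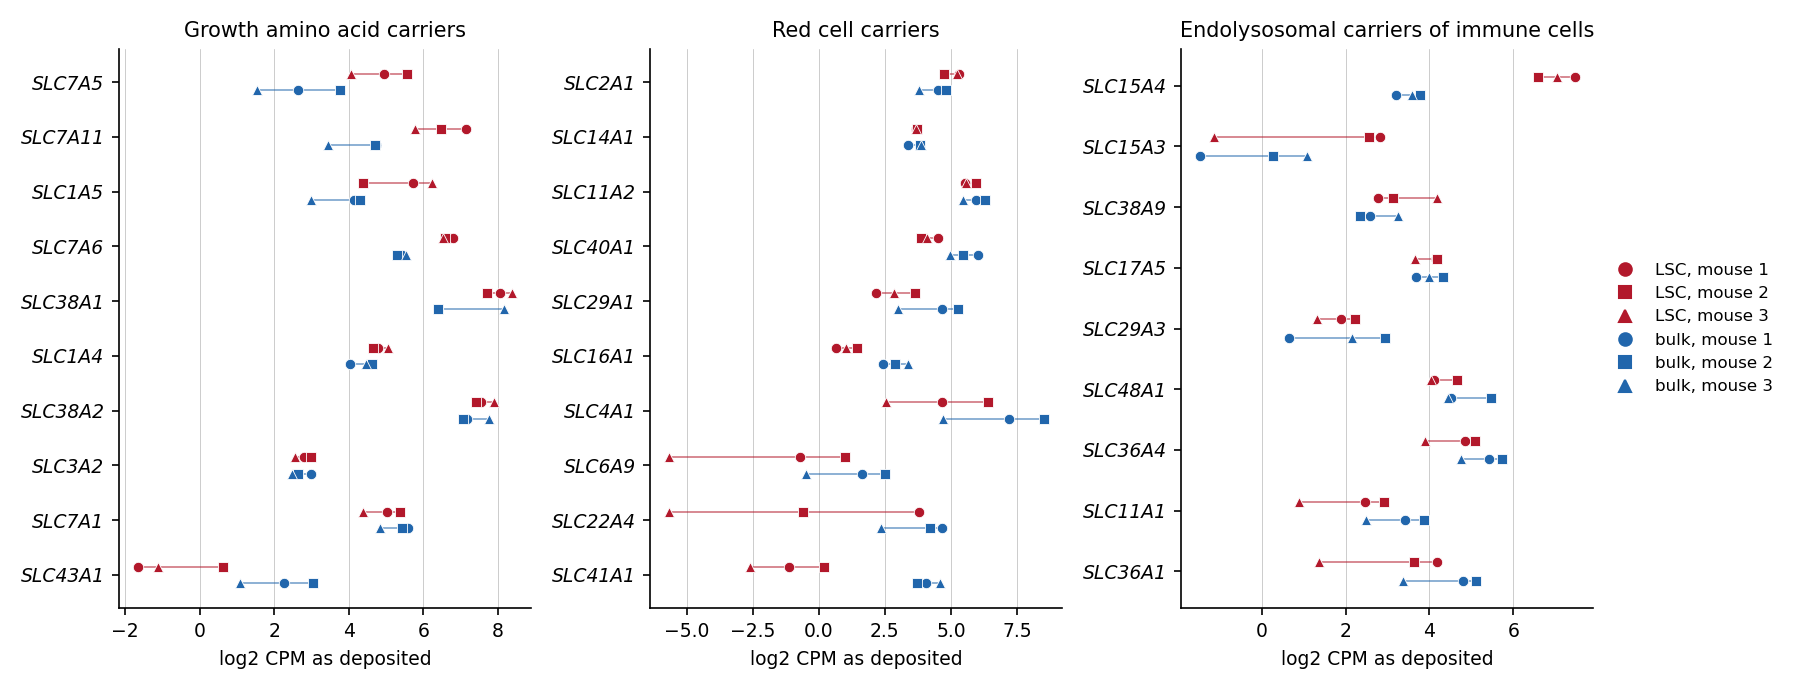
Deposited log2 CPM (x axis, a separate range in each panel) of the 10 growth-related amino acid carriers, the 10 red cell carriers and the 9 endolysosomal carriers, with LSC in red above bulk in blue and 1 symbol per mouse; lines span each population. Red lies right of blue for 8 of 10 growth-related carriers by mean change, while 9 of 10 red cell carriers have a negative mean change, SLC14A1 by -0.00 and with a positive one under array weights, and among endolysosomal carriers SLC15A4 stands alone.

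None of the 23 carriers in the sugar class, set by family number, passed the test without the block on the deposited values. Their median log2 change was 0.35. Without the block but with log2(CPM + 0.1), log2(CPM + 1) or log2(CPM + 5), 1 was higher and 1 lower. Array weights, voom or leaving out LSC of mouse 2 gave 0 higher and 1 lower. Leaving out LSC of mouse 3, alone or with bulk of mouse 3, gave 1 higher and 0 lower. Across all of these settings 197 to 446 of all genes tested were higher and 50 to 302 lower. With the block 4 were higher and 2 lower, against 8.25% and 7.71% of all genes. SLC2A6 and SLC2A8, facilitators of family 2 that sit mainly in lysosomes and other inner membranes, were among the higher ones. SLC2A6 had 26.4, 30.2 and 7.73 CPM in LSC and 2.74, 5.50 and 3.77 CPM in bulk (adjusted p = 0.0134 with the block, limma; 0.067 without). SLC2A8 had 5.84, 5.14 and 6.35 CPM in LSC and 0.685, 1.36 and 0.128 CPM in bulk (adjusted p = 0.0236 with the block, limma; 0.0646 without). SLC50A1, the animal member of the SWEET sugar carriers, had 44.3, 129 and 103 CPM in LSC and 16.3, 38.4 and 32.4 CPM in bulk (log2 change 1.62, adjusted p = 0.00257 with the block, limma; 0.0969 without). In each mouse the LSC value of SLC50A1 was above the bulk value, which a call with the block favours. The lowest LSC library stood just above the highest bulk library.

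The main glucose importers did not pass in either fit. SLC2A1 had 39, 26.6 and 37.6 CPM in LSC and 22.9, 27.9 and 13.9 CPM in bulk, with an interval of the log2 change from -0.11 to 1.53. SLC2A3 had 14.7, 47 and 17 CPM in LSC and 35.8, 58.7 and 19.1 CPM in bulk. SLC2A14, a near-identical copy of SLC2A3 with which it may share reads, was lower with the block, at 0.443, 1.84 and 0.583 CPM in LSC and 4.79, 6.10 and 2.30 CPM in bulk (adjusted p = 0.048, limma). SLC37A4, the glucose-6-phosphate carrier of the endoplasmic reticulum, had 0, 0.634 and 0 CPM in LSC, from 10 reads in all, and 3.60, 3.98 and 2.56 CPM in bulk (adjusted p = 0.0378 with the block, limma; 0.0812 without). SLC2A4RG, a zinc finger transcription factor named for its binding to the promoter of the insulin-responsive glucose carrier SLC2A4 and not itself a carrier, had 18.1, 9.38 and 14.1 CPM in LSC and 3.08, 3.73 and 2.88 CPM in bulk. It rose by 2.05 on the log2 scale (adjusted p = 0.0335, limma), and the call was lost on leaving out any library but LSC of mouse 2, with adjusted p up to 0.106.

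Of the 8 monocarboxylate carriers, 1 was lower and 0 higher, against 1.33% and 2.71% of all genes. With the block 2 were lower and 0 higher, against 7.71% and 8.25% of all genes. Their median, -1.25, was the lowest of the classes. SLC16A9, linked in human genetics to carnitine levels, had 2.29, 2.22 and 1.60 CPM in LSC of mice 1, 2 and 3, against 25.7, 17.3 and 14.7 CPM in bulk. It fell by 3.20 on the log2 scale (SE 0.44, adjusted p = 0.00532, limma). SLC16A1, the lactate and pyruvate carrier MCT1, had 1.55, 2.73 and 2.04 CPM in LSC and 5.31, 7.28 and 10.4 CPM in bulk, and was lower only with the block (log2 change -1.84, adjusted p = 0.03, limma; 0.0839 without). Both had every LSC library below every bulk library, as 11.9% of all genes did, and a test on the same values favours such separation. BSG and EMB, chaperones that bring SLC16A1 to the surface, were likewise lower with the block (adjusted p = 0.02 and 0.0147, limma). BSG averaged 5.95 ± 4.9 CPM in LSC and 20.7 ± 15.1 CPM in bulk, and EMB 197 ± 51.4 CPM in LSC and 359 ± 45 CPM in bulk (SD, n = 3 each). SLC16A7, a high-affinity pyruvate carrier, had 83.6, 55.7 and 116 CPM in LSC and 55.5, 67.8 and 102 CPM in bulk and passed in neither fit.

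The 10 carriers with known roles in red cells and their precursors had the lowest median of the carrier lists, at -1.63. Without the block 1 was lower, the magnesium exporter SLC41A1, and with it 5 were; 0 were higher. SLC4A1 had 25.1, 83.4 and 5.76 CPM in LSC and 148, 361 and 25.7 CPM in bulk. The populations overlapped, since mouse 3 was low and mouse 2 high in both, and within the mice the log2 change was -2.56, -2.12 and -2.15 (adjusted p = 0.000571 with the block, limma; 0.268 without). SLC40A1, ferroportin, the cell's iron exporter, had 22.8, 14.5 and 17.2 CPM in LSC and 64.4, 43.6 and 31.4 CPM in bulk (adjusted p = 0.013 with the block, limma; 0.0826 without). SLC22A4, the ergothioneine carrier, had 13.7, 0.634 and 0 CPM in LSC and 25.5, 18.5 and 5.12 CPM in bulk (adjusted p = 0.0265 with the block, limma; 0.222 without). SLC14A1, the red cell urea carrier, passed in neither fit: it had 12.7, 12.9 and 12.7 CPM in LSC and 10.3, 14.1 and 14.4 CPM in bulk, with an interval of the log2 change from -0.77 to 0.77. The 18 erythroid markers tested moved in the same direction as SLC4A1, with 3 lower, 15 lower with the block, 0 higher and a median log2 change of -3.17; their part in the red cell carrier results was not tested. SLC4A1 and the erythroid sum were both lowest in mouse 3 in each population.

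Organelle exchangers and vitamin carriers gave calls only with the block. SLC9A7, a sodium-proton exchanger of the trans-Golgi network, had 129, 154 and 246 CPM in LSC and 51.4, 69.4 and 190 CPM in bulk (adjusted p = 0.0289, limma; 0.303 without). SLC9A8 of the Golgi was lower, at 12.3, 28.3 and 5.32 CPM in LSC and 30.6, 38.8 and 15 CPM in bulk (adjusted p = 0.0451, limma). Both exchangers kept their direction in 3 of 3 mice, which a call with the block favours. SLC23A2, which imports vitamin C, had 62.8, 48.8 and 32.1 CPM in LSC and 15.6, 23 and 18.5 CPM in bulk (log2 change 1.30, adjusted p = 0.0212, limma; 0.0786 without). SLC47A1, an exporter of organic cations that acts in kidney and liver, had 30.5, 32.9 and 12 CPM in LSC and 7.02, 14.2 and 4.99 CPM in bulk (adjusted p = 0.0153, limma; 0.151 without). For both carriers each mouse had its LSC library above its bulk library, which a call with the block favours. No carrier of nucleosides (5), nucleotide sugars (5), lipids and acyl groups (4) or urea (2) passed in either fit.

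Several carriers with many reads in both populations did not pass in either fit. SLC38A2, a stress-responsive importer of neutral amino acids, had 185, 172 and 240 CPM in LSC and 144, 133 and 217 CPM in bulk. SLC39A10, a zinc importer, had 108, 107 and 115 CPM in LSC and 60.8, 45.1 and 126 CPM in bulk, and SLC5A3, the importer of myo-inositol, had 76.9, 94.1 and 30.5 CPM in LSC and 45.7, 33.3 and 70.2 CPM in bulk. For SLC5A3 mouse 3 went against the other mice. SLC44A1, a choline carrier, had 50.7, 73.2 and 44.5 CPM in LSC and 66.9, 94.4 and 79.7 CPM in bulk. SLC35A3, a Golgi carrier of UDP-N-acetylglucosamine, had 45.3, 50.5 and 60.5 CPM in LSC and 27.9, 37.3 and 44.1 CPM in bulk. Each mouse had less SLC44A1 and more SLC35A3 in its LSC library, by less than the test resolved (adjusted p = 0.354 and 0.36, limma). SLC35A1, the Golgi carrier of CMP-sialic acid, SLC18A2, the vesicular monoamine carrier, SLC17A5, the lysosomal sialic acid exporter, and SLC16A4 of the monocarboxylate family had log2 changes of -0.27, -0.22, -0.00 and -0.26. The scaffolds SLC9A3R1 and SLC9A3R2, which tether transporters to the cytoskeleton, had log2 changes of -0.34 and 0.03.

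**Figure D4:**
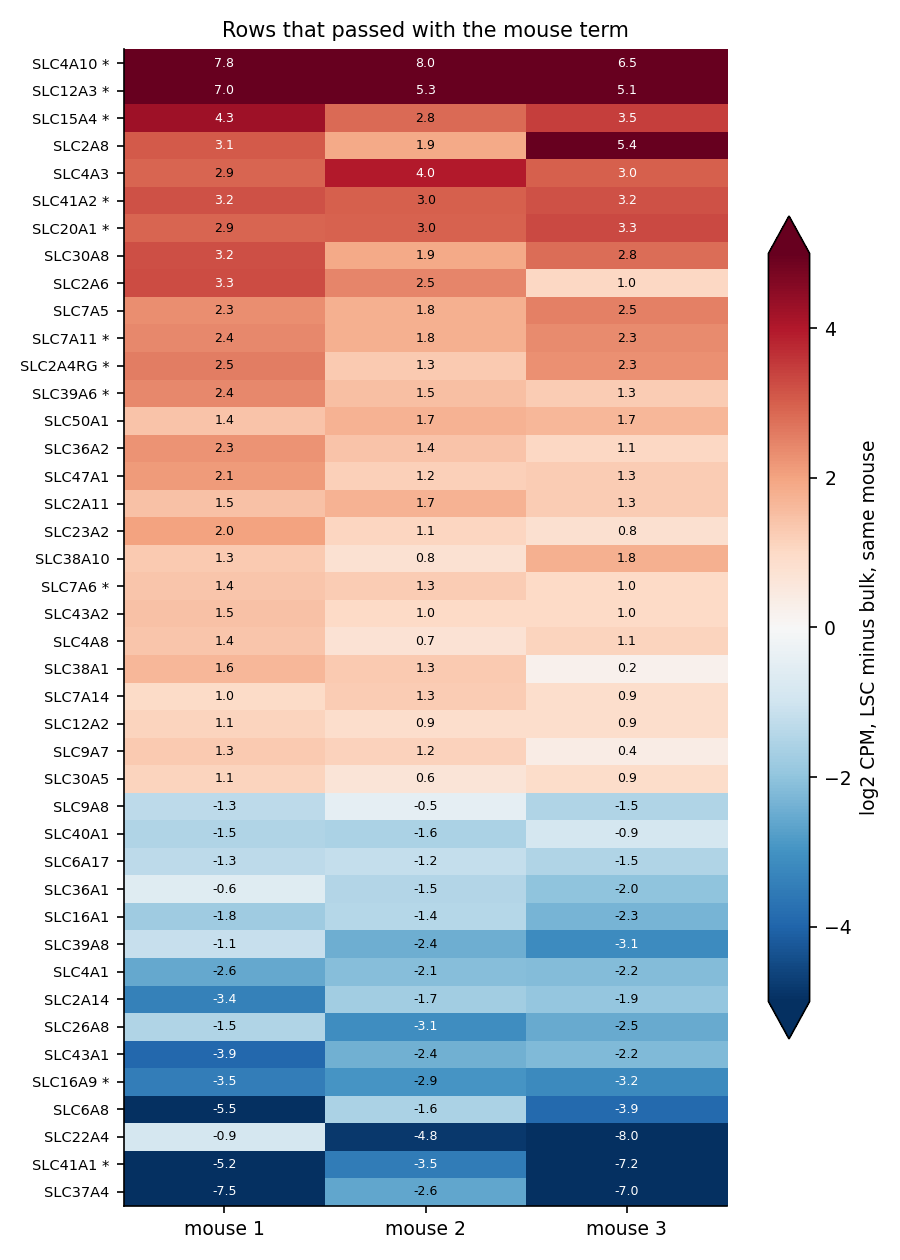
Log2 CPM of LSC minus bulk within each mouse (colour and printed value) for rows that passed with the mouse in the fit, 1 of the 43 not being shown, ordered by mean change from highest to lowest; asterisks mark the 11 that also passed without it, and colours saturate beyond 5 and -5. Every higher row shown is positive and every lower row negative in each of the 3 mice, which the fit favours by its construction.

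Some carriers differed between mice in both populations. Over the 178 rows a median of 32.4% of a gene's variance in log2 CPM lay between the populations and 40.9% between the mice, against 26.8% and 43.8% for all genes tested. Of the 5 degrees of freedom among 6 libraries, 1 lies between populations and 2 between mice, so unrelated values would average 20% and 40%. Those are means and the shares above medians, so their closeness does not speak to a mouse effect. Over the 178 rows, deviations from group means correlated at 0.33, 0.38 and 0.40 within a mouse. Between different mice they correlated at -0.35 to 0.10. Deviations within a population cancel for each gene, so positive values within a mouse force values between mice to be negative on balance. The contrast is thus no further support. SLC28A3, a concentrative nucleoside carrier, had 16.4, 19.6 and 2.26 CPM in LSC of mice 1, 2 and 3 and 28.8, 38.2 and 2.18 CPM in bulk, with 95.3% of its variance between mice. Mouse 3 was low in both populations. SLC22A15, an organic ion carrier, had 15.5, 12.9 and 0 CPM in LSC and 49.3, 39.2 and 7.81 CPM in bulk, and the fructose carrier SLC2A5 had 7.02, 7.10 and 0 CPM in LSC and 13.7, 15.5 and 4.54 CPM in bulk. Neither passed in either fit. SLC38A1 was instead highest in mouse 3 in both populations. The granule and neutrophil markers were lowest in mouse 3 too, with a mean log2 CPM of 5.21, 5.01 and 1.61 in LSC and 6.61, 7.14 and 2.94 in bulk; their part in these carrier differences was not tested.

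**Figure D5:**
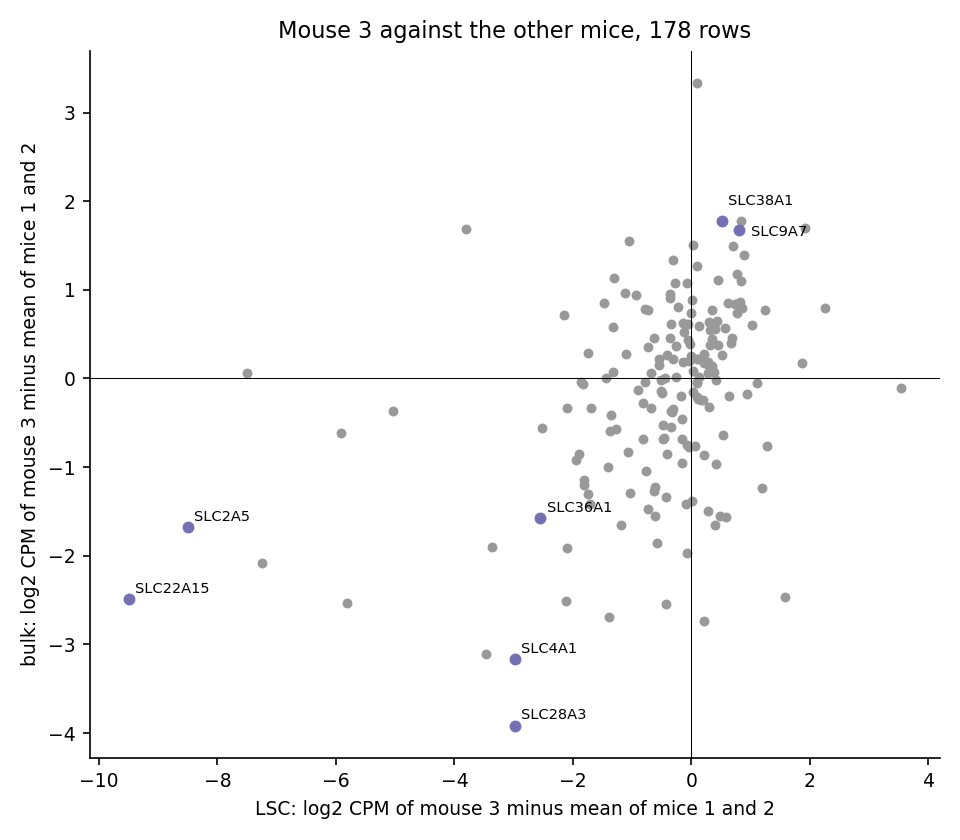
Log2 CPM of mouse 3 minus the mean of mice 1 and 2 in LSC (x axis) and in bulk (y axis) for the 178 rows; each point is a gene and the labelled ones are named in the text. Points at the lower left, such as SLC28A3 at -2.98 in LSC and -3.92 in bulk, are low in mouse 3 in both populations, and SLC38A1 at the upper right is high in it.

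In the authors' deposited table, whose fold change is coded bulk minus LSC, 41 of the 178 rows had a p-value under 0.05, while 1723 of all genes did (12.4%). None of the 178 had a false discovery rate under 0.05 in the authors' deposited table, and 6 had one under 0.1, the lowest being 0.0813. All genes were not counted at these false discovery rates, so these counts are not read as few or many. All 11 rows called here had the same direction in the authors' deposited table.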

How the data were processed

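RNA of 6 libraries, amplified with a NuGEN Ovation kit per the labels' protocols, was described by 1 table of human gene symbols. Bowtie2, RSEM, edgeR and the build hg19 stand in the submitters' processing notes, with no version. The authors deposited log2 CPM per library with a small prior, as read from the values, which share a floor of 0.0197 CPM. The authors' deposited table also holds, for each gene, a fold change, a likelihood ratio score, a p-value and a false discovery rate, named in its header. Values less this floor were multiples of 1 read's worth (100% within 0.1 of a whole read), which gave reads per gene. Total reads were 10669560 to 14933494 per library, and with no molecular identifiers, counting error understates the error of amplified reads.

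LSC and bulk were compared on the deposited log2 values for genes reaching 1 CPM in 3 or more libraries, by a two-sided moderated test (lmFit, then eBayes with trend; limma 3.58.1, R 4.3.3), adjusted by Benjamini-Hochberg over all 13755 genes. Libraries of the same number share a mouse by design, and their deviations from group means correlated at 0.33, 0.35 and 0.30 over all genes, so values with the mouse as a block are given where they change a call. P-values measure spread among 3 mice; with 3 libraries against 3, no permutation test can go below 0.1. Intervals are 95% and come from the fit without the block. Fold bounds use 3 reads over the group. Count models were not fitted as the main test because the files hold log2 values. The code was tested on simulated reads.

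Members and lists were chosen with earlier results of these data known. Named genes are all members past the threshold, up to 15 in each direction with the lowest p with the block, the 2 members of each class with the highest mean log2 CPM, and members of the growth-related, endolysosomal and red cell lists. SLC2A3, SLC2A5, SLC2A8, SLC4A3, SLC4A8, SLC7A5P2, SLC7A11-AS1, SLC12A2, SLC16A10, SLC38A5, SLC20A2, SLC22A15, SLC30A5, SLC30A8, SLC41A3 and genes that are not members were named after their values were seen. Some genes that the rule names are left out of this text and are not reported here. Alternatives were log2(CPM + 0.1), log2(CPM + 1) and log2(CPM + 5), a filter of 5 CPM or none, quantile and upper-quartile normalization, array weights, eBayes with no trend, voom on recovered reads, the block, and leaving out each library or mouse. Voom with the block and a count over carrier rows alone were added after the data were seen. The table gives no gene lengths, so levels are not compared between genes, and no sequences or coordinates are given.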

Additional observations from a re-analysis of the deposited data

How the results depend on the processing

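Without the block, 9 rows were higher and 2 lower. With the mouse as a replicate block 28 were higher and 15 lower, and with voom and the replicate block 29 and 16. The lower count was 4 with log2(CPM + 1), log2(CPM + 5) or array weights. Over the settings without 1 library or 1 mouse, 3 to 7 rows were higher and 0 to 4 lower. Over all genes tested the same settings gave 37 to 346 higher and 0 to 169 lower. With the replicate block on 2 mice, against 28 and 15 on 3, the counts were 7 and 5 without mouse 1, 11 and 3 without mouse 2, and 38 and 21 without mouse 3. Counts over all genes tested were 386 and 344, 444 and 296, and 1747 and 1567, against 1135 and 1060 on 3 mice. The other alternatives without the block on all 6 libraries stayed within 1.5 times of 9 and 2. The median log2 change ranged from -0.01 (without LSC replicate 2) to 0.17 (without LSC replicate 3). Of 263 refits of the 11 called rows, 209 kept the call, 54 lost it and 0 changed direction. SLC12A3, SLC15A4 and SLC20A1 kept it in all 24 settings each. SLC41A1 and SLC41A2 lost it in 1 and SLC16A9 in 2, always with both libraries of a mouse left out. SLC7A11 lost it in 8 of 24, SLC2A4RG in 10, SLC39A6 and SLC7A6 in 12 each, and SLC4A10 in 8 of 23; it is removed by the filter of 5 CPM. With 4 libraries the fit has few degrees of freedom. The cause of the losses was not tested in any setting.

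Log2 changes of some genes that passed in neither fit changed sign. Array weights gave 0.044 for SLC14A1, 0.0038 for SLC20A2 and -0.10 for SLC9A3R2, and upper-quartile rescaling gave -0.023 for SLC9A3R2. Leaving out libraries or mice gave ranges of -0.36 to 0.45 for SLC9A3R2, -0.16 to 0.089 for SLC14A1, -0.29 to 0.14 for SLC20A2, -0.87 to 0.37 for SLC16A4, -0.033 to 0.22 for SLC31A1, -0.047 to 0.23 for SLC3A2, -0.090 to 0.44 for SLC16A7, -1.88 to 0.42 for SLC28A3, -0.25 to 0.17 for SLC17A5, -0.78 to 0.41 for SLC29A3, -0.44 to 0.036 for SLC18A2, -0.43 to 1.05 for SLC41A3, -0.66 to 0.019 for SLC9A3R1, -0.76 to 0.18 for SLC35A1, -0.23 to 1.12 for SLC5A3 and -1.75 to 0.29 for CD33. With the replicate block on 2 mice, signs changed for SLC16A7 (-0.047) without mouse 1. Without mouse 2 they changed for SLC14A1 (0.063), SLC17A5 (0.077), SLC29A3 (0.21), SLC3A2 (-0.047), SLC5A3 (-0.23) and SLC9A3R2 (-0.18). Without mouse 3 they changed for SLC14A1 (0.089), SLC16A4 (0.37), SLC17A5 (0.16), SLC20A2 (0.14), SLC29A3 (0.26), SLC35A1 (0.18) and CD33 (0.29). Bulk replicate 1, with 3423878 reads outside MTRNR2L, limits what can be seen in genes with few reads.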

Other observations

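Among solute carriers that keep other symbols, 4 of 35 were higher with the block and 2 lower, against 8.25% and 7.71% of all genes. NIPA1 alone passed without the block. CTNS, the lysosomal cystine exporter, had 58.4, 94.5 and 12.5 CPM in LSC of mice 1, 2 and 3 and 5.82, 11.9 and 7.04 CPM in bulk (log2 change 2.38, adjusted p = 0.0112 with the block, limma; 0.0912 without). PQLC2, the lysosomal exporter of cationic amino acids, averaged 31 ± 12.6 CPM in LSC and 12.5 ± 5.77 CPM in bulk (SD, n = 3 each), and also passed only with the block (adjusted p = 0.0134, limma; 0.164 without). RHAG, an ammonia channel of red cells, averaged 2.76 ± 2.45 CPM in LSC and 22.2 ± 19.4 CPM in bulk (SD, n = 3 each; adjusted p = 0.00723 with the block, limma; 0.185 without). NIPA2, the closest relative of NIPA1, averaged 74.2 ± 11.8 CPM in LSC and 44.9 ± 9.31 CPM in bulk (SD, n = 3 each) and passed in neither fit (adjusted p = 0.209, limma; 0.0814 with the block).

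Of 32 tested partners and regulators of carriers, 1 was higher and 2 lower, against 2.71% and 1.33% of all genes. With the block 3 were higher and 8 lower, against 8.25% and 7.71% of all genes. HIF1A, a transcription factor that raises glucose importers under low oxygen, had 139, 82.7 and 113 CPM in LSC and 296, 149 and 302 CPM in bulk (adjusted p = 0.00805 with the block, limma; 0.118 without). TXNIP, which promotes internalization of SLC2A1, averaged 147 ± 63 CPM in LSC and 82.7 ± 19.4 CPM in bulk (SD, n = 3 each; adjusted p = 0.0488 with the block, limma; 0.321 without).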
